A study of Canis lupus familiaris with 12 samples.

Results

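Interferon response genes are the receptors, signal carriers, transcription factors and antiviral proteins through which a cell reads and answers interferon. The set described here was a list of 45 gene symbols, and a gene was measured if the array's probe-to-gene table named it for at least 1 probe set. This found 37 of the 45 genes among the 15115 genes with a symbol of their own on the array. The 8 without a probe set of their own symbol were IFNAR2, DDX58, IFIT1, IFIT3, OASL, BST2, SP110 and SAMD9, and they are not analysed here. Each gene is represented by its brightest probe set, taken by mean level.

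Expression was measured in C2 cells, a line from a canine mast cell tumour with a mutated, constitutively active KIT receptor, on Affymetrix Canine Genome 2.0 arrays. Masitinib inhibits KIT and a few related tyrosine kinases. Cells were harvested as controls at 0 h, before the drug was added, and after 12, 24 and 72 h in 100 nM masitinib. Each of these 4 groups had 3 arrays, which makes 12 arrays. All groups are cultures of the same single line, so the p-values measure only the spread between these cultures. Untreated cultures of later times are not analysed here, so the drug cannot be told apart from the hours in culture.

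Type I interferons bind a receptor made of IFNAR1 and IFNAR2, and interferon gamma binds IFNGR1 and IFNGR2. The receptors activate JAK kinases, which phosphorylate STAT proteins. STAT2 and its STAT partner join IRF9 to form a complex that enters the nucleus and switches on genes such as MX1, OAS1, IFIT2 and ISG15. Sensors of viral RNA such as IFIH1 act upstream, through IRF3 and IRF7, on the interferon genes themselves, and USP18 damps the receptor's signal. The roles given below are known mainly from human and mouse cells.

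The values are log2 expression values, so a difference of 1 is a 2-fold change. A gene is said to have risen or fallen where the limma model gave an adjusted p under 0.001 and the change exceeded 1.5-fold. Array medians lay between 5.892 and 5.95, and Pearson's r between arrays of 1 time point, was computed over probe sets, which do not replicate each other, and was 0.9952 to 0.9979. The label of the cells was checked with mast cell markers, of which 12 of 15 were measured; their mean log2 level per array was 11.15 to 11.27 at 0 h, 11.6 to 11.66 at 12 h, 11.92 to 11.99 at 24 h and 11.77 to 11.93 at 72 h. At 12, 24 and 72 h, 1, 7 and 4 of the 12 rose (8.33%, 58.3% and 33.3%), where 4.26%, 8.01% and 8.73% of all genes were higher. Of these calls, that of GATA2 at 72 h still passed under scaling to the poly-A controls, described below, and the others did not (FCER1A gave 0.14 at 24 h). The mean level of 10 macrophage markers was 6.135 to 6.226 at 72 h, against 5.945 to 5.992 at 0 h, with only LYZ risen (log2 change 1.29, 1.71 and 1.62 at 12, 24 and 72 h). Of the other markers measured, the fall of CD3D (T cell, 9 markers) and the rise of CD79A (B cell, 5 markers; lost without single arrays of each time point) were at 72 h, no fibroblast marker of 8 changed, and of 7 endothelial markers PECAM1 and KDR rose at 24 and 72 h (4.28 and 2.54 at 72 h). The difference between GAPDH probe sets at the 3' and 5' ends, a sign of RNA quality, was 0.349 to 0.425 at 0 h, 0.234 to 0.328 at 12 h, 0.251 to 0.512 at 24 h and 0.285 to 0.383 at 72 h. That of actin was 0.573 to 1.01, 0.453 to 0.99, 0.624 to 1.09 and 0.748 to 1.24 at these times, with overlapping ranges. The part of these shifts in the results below was not tested. In bulk RNA, fewer cells of a type and less RNA per cell cannot be told apart.

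A minority of the 37 genes changed under masitinib, and not in 1 direction. IRF2, IRF3 and IRF9 rose by more than 2-fold at every time and IFI35 rose at every time, while the antiviral effectors MX1, MX2, RSAD2 and OAS1 did not pass the test at any time. Of these effectors MX1, MX2 and RSAD2 were dim, so the lack of calls cannot show that they were unchanged. USP18 fell at 24 and 72 h, and OAS2, PARP14, GBP1 and EIF2AK2 had their largest change at 72 h. At 12 h, 7 of the 37 genes were higher (18.9%) and 0 lower, where 4.26% of all 15115 genes were higher and 6.30% lower. At 24 h, 8 were higher (21.6%) and 1 lower (2.7%), where 8.01% and 10.0% of all genes were. At 72 h, 8 were higher (21.6%) and 3 lower (8.11%), where 8.73% and 11.0% of all genes were. The median log2 change of the 37 genes was 0.14, 0.15 and 0.14 at 12, 24 and 72 h, beside 0.01, 0.03 and 0.02 over all genes. The balance of directions depended on the scaling: relative to the poly-A controls, 3 were higher and 3 lower at 12 h, 3 higher and 13 lower at 24 h, and 4 higher and 7 lower at 72 h. That scaling also moved the median of all probe sets to -0.28, -0.57 and -0.44 at these times. The shares of all genes called were not counted under it, so these counts cannot be set against the whole array.

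**Figure D1:**
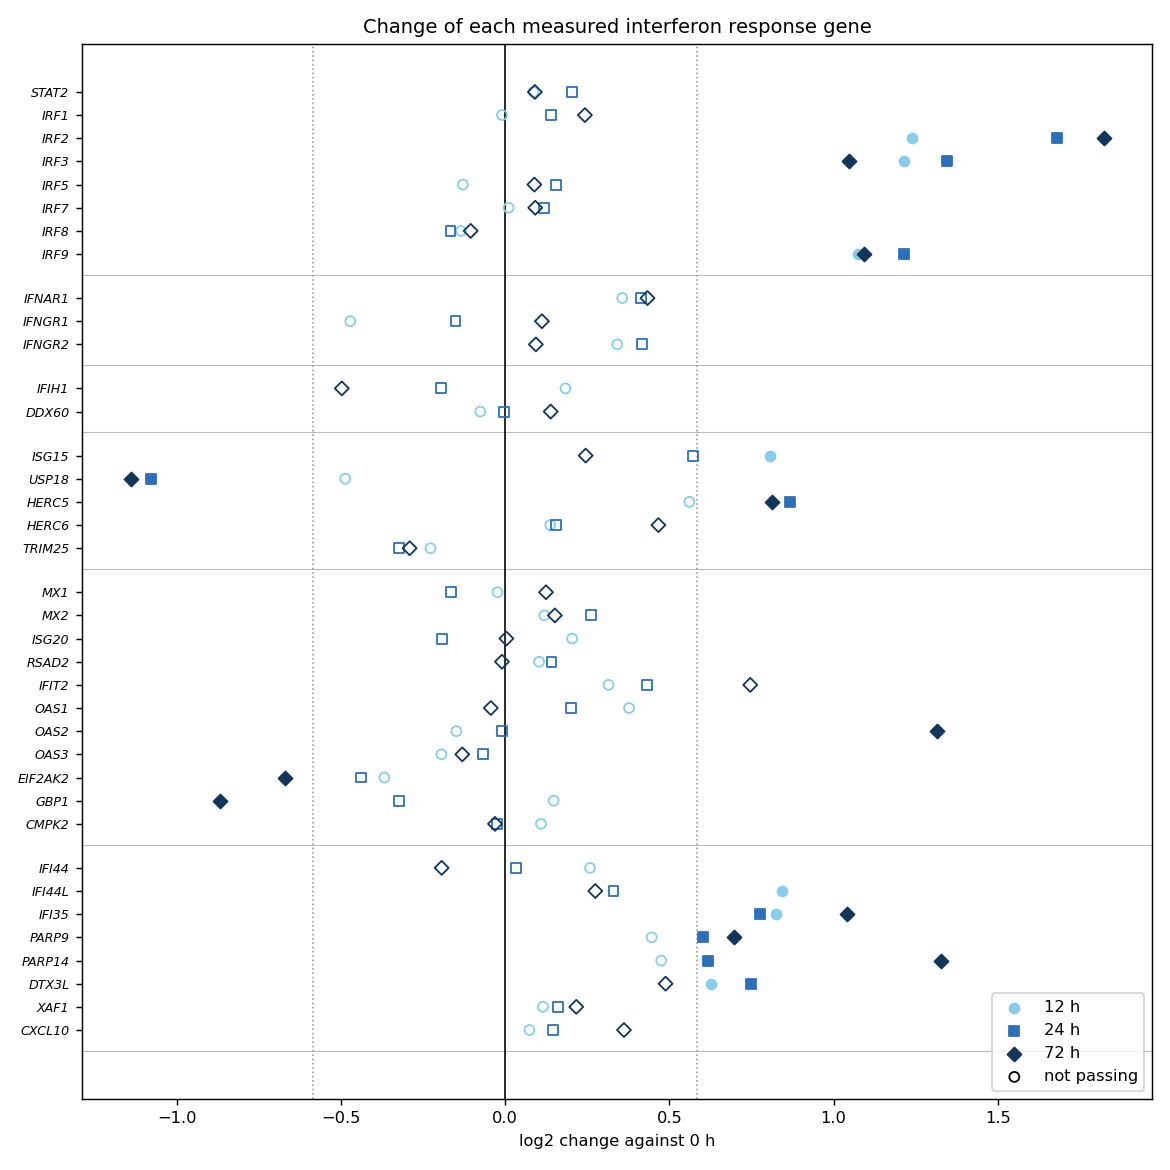
Log2 change against 0 h (x axis) of each of the 37 measured interferon response genes (rows, grouped from top to bottom as transcription factors, receptors, sensors, ISG15 pathway, antiviral effectors, and PARP and other genes) at 12, 24 and 72 h of masitinib. Filled symbols passed the test, open symbols did not, and dotted lines mark 1.5-fold; most symbols are open and lie between the lines, while IRF2, IRF3 and IRF9 lie to the right at all 3 times and USP18 lies to the left at 24 and 72 h.

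Among the 8 transcription factors, 3 rose (37.5%) at each of the 3 times and none fell. Of all genes, 4.26%, 8.01% and 8.73% were higher and 6.30%, 10.0% and 11.0% lower at these times. IRF2 binds the same DNA elements as IRF1 and mostly represses the genes that carry them. Its log2 level was 8.49, 8.48 and 8.34 at 0 h, 9.66, 9.61 and 9.75 at 12 h, 10.17, 10.06 and 10.13 at 24 h, and 10.30, 10.27 and 10.21 at 72 h. No array of 1 time overlapped those of the next. IRF2 rose by 1.24 ± 0.07 (log2, SE, limma adjusted p = 2.96e-08) at 12 h, by 1.68 (6.1e-10) at 24 h and by 1.82 (2.27e-10) at 72 h, the last being 3.54-fold. A second probe set for IRF2 rose by 0.73, 1.09 and 1.23 at these times, and the remaining, dim one with a mean level of 4.02 did not pass the test (0.17, 0.08 and 0.34).

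IRF3 carries the signal of the viral RNA and DNA sensors to the interferon beta gene. Its log2 level was 9.64, 9.73 and 9.68 at 0 h, 10.90, 10.84 and 10.96 at 12 h, 11.08, 10.97 and 11.03 at 24 h, and 10.69, 10.70 and 10.80 at 72 h. All 9 arrays of treated cells were above all 3 of the controls. The rise was 1.22 ± 0.06 at 12 h (SE, limma adjusted p = 2.35e-08), 1.34 at 24 h (2.55e-09) and 1.05 at 72 h (2.08e-08), that is 2.32-fold, 2.54-fold and 2.06-fold. Its second probe set also rose at each time, by 1.15, 1.18 and 0.74.

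IRF9 is the DNA-binding part of the complex that type I interferon activates. It was measured at 7.29, 7.29 and 7.14 at 0 h, 8.37, 8.26 and 8.32 at 12 h, 8.54, 8.38 and 8.45 at 24 h, and 8.37, 8.22 and 8.42 at 72 h. Treated and control arrays did not overlap, and the 3 treated times lay close together. The rise was 1.07 ± 0.07 (SE, limma adjusted p = 2.24e-07), 1.22 (2.76e-08) and 1.09 (6.39e-08) at 12, 24 and 72 h. The 2 other probe sets of IRF9 did not pass the test: 1 gave changes of 0.40, 0.53 and 0.47, and the dimmer one gave 0.02, 0.01 and 0.03.

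The other 5 factors did not pass the test at any time. STAT2, the STAT that pairs with IRF9, was at 8.65 ± 0.09 at 0 h, 8.74 ± 0.10 at 12 h, 8.85 ± 0.06 at 24 h and 8.74 ± 0.09 at 72 h (SD, n = 3 each), with changes of 0.09, 0.20 and 0.09. A pair of its 4 other probe sets gave larger changes, of 0.38, 0.53 and 0.36 and of 0.45, 0.56 and 0.43 (limma adjusted p = 8.57e-05 and 0.000273 at 24 h), all under 1.5-fold. IRF1, an activator induced by interferon gamma, had changes of -0.01, 0.14 and 0.24. IRF5, IRF7 and IRF8 were dim on every array and their changes lay between -0.17 and 0.15.

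**Figure D2:**
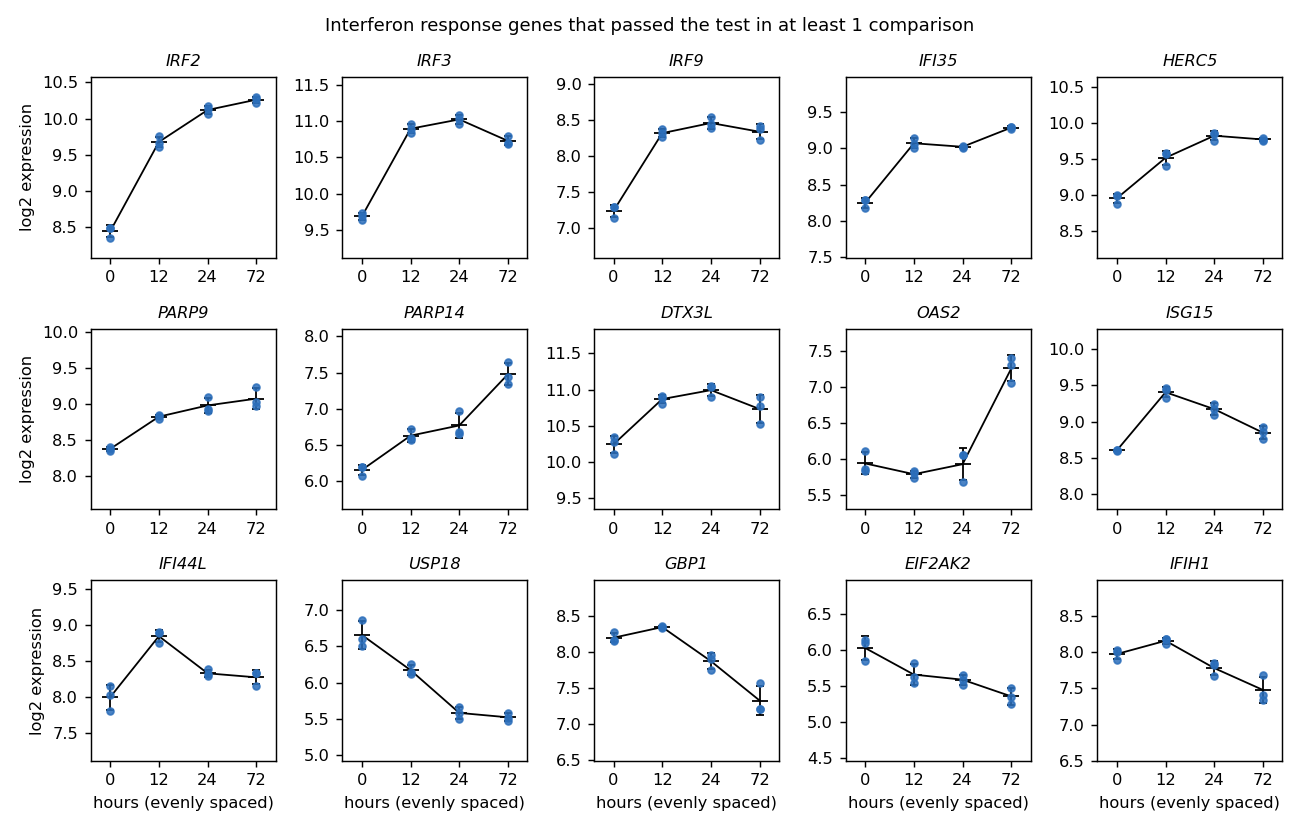
Log2 expression (y axis, each panel 2.5 units high) on each of the 3 arrays per time point (points) at 0, 12, 24 and 72 h of masitinib (x axis, evenly spaced) for the 15 genes that passed the test in at least 1 comparison, with lines through the means and bars of ± 1 SD (n = 3). IRF2, IRF3, IRF9 and IFI35 were raised from 12 h on, OAS2 only at 72 h, ISG15 and IFI44L were highest at 12 h, and USP18, GBP1, EIF2AK2 and IFIH1 were lowest at 72 h. The share of all genes that passed in at least 1 comparison was not counted.

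None of the 3 measured receptor chains passed the test against 0 h. IFNAR1, a chain of the type I receptor, was at 6.62, 6.44 and 6.36 at 0 h, 6.82, 6.82 and 6.84 at 12 h, 6.68, 6.86 and 7.12 at 24 h, and 7.11, 7.05 and 6.55 at 72 h. The groups overlapped at 72 h through the third array, and without it the change was 0.61 (limma adjusted p = 0.000894), past the threshold, against 0.43 (0.0264) with it. IFNGR1, the ligand-binding chain of the interferon gamma receptor, changed by -0.47 ± 0.08 at 12 h (SE, limma adjusted p = 0.000355, under 1.5-fold) and by -0.15 and 0.11 at 24 and 72 h. IFNGR2, its partner, had changes of 0.34, 0.42 and 0.09 on its brightest probe set, and 2 further probe sets gave 0.32 and 0.17 at 72 h. The remaining probe set of IFNGR2 fell by 1.14 at 72 h (limma adjusted p = 1.58e-07), so the probe sets of this gene went in opposite directions. The falling set is of a type that can match several transcripts, and so are the brightest set and 1 of the 2 further sets.

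Of the 2 measured RNA sensors, DDX60 stayed within -0.08 and 0.14 of its 0 h level. IFIH1, the sensor of long double-stranded RNA also called MDA5, was at 8.04, 8.00 and 7.89 at 0 h, 8.11, 8.19 and 8.18 at 12 h, 7.82, 7.68 and 7.85 at 24 h, and 7.41, 7.34 and 7.69 at 72 h. Arrays at 72 h lay below those at 0 and 12 h. The change against 0 h was -0.50 ± 0.09 at 72 h (SE, limma adjusted p = 0.000478), which is under 1.5-fold, and it was -0.60 (4.14e-05), past the threshold, without the third 72 h array. At 72 h against 12 h, IFIH1 fell by 0.68 (limma adjusted p = 5.9e-05).

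ISG15 is a ubiquitin-like protein that is joined to other proteins by a chain of enzymes, UBA7, UBE2L6 and HERC5, and removed again by USP18. Of the 5 listed genes of this group, 1 was higher at each time and 1 was lower at 24 and 72 h (20% each). Of all genes, 4.26%, 8.01% and 8.73% were higher at 12, 24 and 72 h, and 10.0% and 11.0% lower at 24 and 72 h. ISG15 itself was at 8.60, 8.59 and 8.61 at 0 h, 9.46, 9.32 and 9.44 at 12 h, 9.25, 9.09 and 9.18 at 24 h, and 8.86, 8.75 and 8.93 at 72 h. All treated arrays were above all controls, and the level was highest at 12 h. ISG15 rose by 0.80 ± 0.07 at 12 h (SE, limma adjusted p = 1.36e-06, 1.75-fold), and its second probe set rose by 0.60. At 24 h the change was 0.57 (1.5e-05), 1.49-fold and so under the threshold, and at 72 h it was 0.25 (0.0104). Without the second 24 h array the 24 h change was 0.61 (limma adjusted p = 3.42e-05) and passed.

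HERC5, the ligase that attaches ISG15 in human cells, was at 9.00, 8.99 and 8.88 at 0 h, 9.40, 9.56 and 9.58 at 12 h, 9.85, 9.75 and 9.86 at 24 h, and 9.80, 9.76 and 9.75 at 72 h. No treated array overlapped the controls. The change of 0.56 ± 0.07 at 12 h (SE, limma adjusted p = 2.59e-05, 1.48-fold) was just under the fold threshold, and passed at 0.62 (3.14e-05) without the first 12 h array, while HERC5 rose by 0.87 (2.49e-07) at 24 h and 0.81 (3.89e-07) at 72 h. HERC6, its neighbour in the genome, changed by 0.14, 0.16 and 0.47, the last with a limma adjusted p of 0.00015 but under 1.5-fold.

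USP18, which strips ISG15 from proteins and blocks signalling at the type I receptor, was the member that fell furthest. Its log2 level was 6.51, 6.87 and 6.60 at 0 h, 6.12, 6.14 and 6.25 at 12 h, 5.66, 5.50 and 5.58 at 24 h, and 5.50, 5.47 and 5.58 at 72 h. Each of the 12 h arrays lay below the controls and above the 24 h arrays. The change was -0.49 ± 0.09 at 12 h (SE, limma adjusted p = 0.000924), under 1.5-fold, and USP18 fell by 1.08 (5.07e-07) at 24 h and by 1.14 (2.64e-07) at 72 h, to a level 2.21-fold lower. TRIM25, a ubiquitin ligase that acts on the RNA sensor RIG-I, gave -0.23, -0.32 and -0.29 and did not pass the test. Outside the 45 genes and chosen after its values were seen, UBA7, the activating enzyme of ISG15, rose by 0.74, 0.79 and 0.65 (SE 0.07, limma adjusted p = 3.45e-06, 8.81e-07 and 4.94e-06); without the second 72 h array its 72 h change was 0.58, under 1.5-fold. UBE2L6, the conjugating enzyme, gave 0.45, 0.35 and 0.50 and did not reach 1.5-fold.

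Of the 16 antiviral effectors listed, 11 were measured. None passed the test at 12 or 24 h. At 72 h 1 had risen (9.09%) and 2 had fallen (18.2%), where 8.73% of all genes were higher and 11.0% lower. OAS2 makes the oligoadenylates that switch on the RNA-cutting enzyme RNase L. It was at 5.84, 6.11 and 5.86 at 0 h, 5.83, 5.74 and 5.80 at 12 h, 6.05, 5.67 and 6.06 at 24 h, and 7.31, 7.05 and 7.40 at 72 h. The 72 h arrays stood above all 9 others. OAS2 rose by 1.32 ± 0.12 at 72 h (SE, limma adjusted p = 1.03e-06, 2.49-fold), while its changes at 12 and 24 h were -0.15 and -0.01. It rests on 1 probe set, of a type that can match several transcripts. The brightest probe sets of IRF3, ISG15, PARP9, IFIH1 and EIF2AK2 are of this type too.

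GBP1 is a GTPase that coats invading microbes and is a marker of interferon gamma. Its level was 8.15, 8.16 and 8.27 at 0 h, 8.32, 8.34 and 8.36 at 12 h, 7.96, 7.75 and 7.90 at 24 h, and 7.21, 7.21 and 7.56 at 72 h. The 72 h arrays lay below all others. GBP1 fell by 0.87 ± 0.09 at 72 h (SE, limma adjusted p = 5.5e-06, 1.83-fold lower), and all 3 of its probe sets fell then (by 0.87, 1.07 and 0.89), after changes of 0.15 at 12 h and -0.32 at 24 h.

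EIF2AK2, the kinase PKR that halts translation when it meets double-stranded RNA, was at 6.09, 6.14 and 5.84 at 0 h, 5.54, 5.62 and 5.81 at 12 h, 5.52, 5.59 and 5.66 at 24 h, and 5.35, 5.47 and 5.25 at 72 h. Every treated array lay below the lowest control. It fell by 0.67 ± 0.10 at 72 h (SE, limma adjusted p = 8.26e-05), and its changes of -0.37 and -0.44 at 12 and 24 h did not pass. The gene was dim: its mean level over all arrays, 5.66, was below every array's median.

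The 8 other effectors did not pass the test. IFIT2 was at 4.72, 4.66 and 4.42 at 0 h, 4.65, 5.13 and 4.97 at 12 h, 4.99, 5.08 and 5.03 at 24 h, and 5.69, 5.40 and 4.95 at 72 h. The spread at 72 h was wide: the change was 0.75 ± 0.16 (SE, limma adjusted p = 0.00238), and 0.94 (0.000138), past the threshold, without the third array. OAS1 changed by 0.38 at 12 h (limma adjusted p = 0.000293), under 1.5-fold, and by 0.20 and -0.04 later. MX1 and MX2, GTPases that trap viral capsids, had changes between -0.17 and 0.26, and RSAD2 (viperin) had 0.10, 0.14 and -0.01. ISG20, OAS3 and CMPK2 stayed between -0.19 and 0.20. MX1, MX2, RSAD2, ISG20 and IFIT2 had mean levels of 5.12, 4.83, 3.76, 4.43 and 4.97, below every array's median. So did OAS3 and CMPK2, at 5.74 and 5.46. For these dim genes the lack of calls cannot show that the transcripts were unchanged.

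The last group holds the PARP genes and other induced genes: of 8 measured, 3, 4 and 3 rose at the successive times (37.5%, 50% and 37.5%) and none fell. Of all genes, 4.26%, 8.01% and 8.73% were higher and 6.30%, 10.0% and 11.0% lower. IFI35 is a leucine zipper protein induced by both interferon types. It was at 8.17, 8.29 and 8.29 at 0 h, 9.14, 9.01 and 9.06 at 12 h, 9.02, 9.01 and 9.04 at 24 h, and 9.30, 9.27 and 9.29 at 72 h. Treated and control arrays were clearly apart. IFI35 rose by 0.82 ± 0.06 (SE, limma adjusted p = 3.23e-07), 0.77 (2.29e-07) and 1.04 (1.29e-08) at 12, 24 and 72 h. All 4 of its probe sets rose at 12 and 72 h, by 0.60 to 0.82 and by 0.75 to 1.04, while at 24 h 2 of the 4 rose (0.77 and 0.70) and the others gave 0.53 and 0.49, under 1.5-fold.

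PARP9 and DTX3L form a complex of an ADP-ribosyltransferase-like protein and a ubiquitin ligase, and PARP14 attaches single ADP-ribose units to proteins. PARP9 was at 8.36, 8.38 and 8.41 at 0 h, 8.85, 8.80 and 8.83 at 12 h, 9.10, 8.94 and 8.91 at 24 h, and 8.97, 9.03 and 9.24 at 72 h. Its treated arrays lay above all controls. PARP9 rose by 0.60 ± 0.08 at 24 h (SE, limma adjusted p = 3.07e-05) and 0.70 (7.19e-06) at 72 h, after 0.45 (0.000614, under 1.5-fold) at 12 h. Without the first 24 h array its 24 h change was 0.54, under 1.5-fold, and under scaling to the poly-A controls, described below, it was -0.001.

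DTX3L was at 10.34, 10.28 and 10.11 at 0 h, 10.81, 10.92 and 10.88 at 12 h, 10.90, 11.05 and 11.03 at 24 h, and 10.78, 10.90 and 10.52 at 72 h. All treated arrays were above all controls, with the third 72 h array the lowest of them. DTX3L rose by 0.63 ± 0.10 at 12 h (SE, limma adjusted p = 0.000229) and 0.75 (2.95e-05) at 24 h, and changed by 0.49, under 1.5-fold, at 72 h. The 12 h call was lost without the second or the third control (0.64 with adjusted p = 0.00103, and 0.56 with 0.0015) and without the second or the third 12 h array (0.60 with 0.00159, and 0.62 with 0.00136), and the 72 h change passed at 0.59 (limma adjusted p = 0.000116) without the third 72 h array. Its second probe set gave 0.29, 0.25 and -0.02 and did not pass.

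PARP14 was at 6.20, 6.19 and 6.07 at 0 h, 6.59, 6.73 and 6.56 at 12 h, 6.97, 6.66 and 6.68 at 24 h, and 7.44, 7.35 and 7.64 at 72 h. The 12 and 24 h arrays overlapped with each other and the 72 h arrays stood above all others. PARP14 rose by 0.62 ± 0.10 at 24 h (SE, limma adjusted p = 2e-04) and by 1.33 (1.63e-07, 2.51-fold) at 72 h, after 0.48 (0.00228) at 12 h. The 24 h call was lost without the third control (0.58, limma adjusted p = 0.00138) or the first 24 h array (0.52, under 1.5-fold). A second, dim probe set with a mean level of 3.63 gave 0.13, 0.13 and 0.18.

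IFI44L, a protein of the IFI44 family with a poorly defined role, was at 8.15, 8.03 and 7.81 at 0 h, 8.88, 8.75 and 8.90 at 12 h, 8.39, 8.32 and 8.29 at 24 h, and 8.33, 8.16 and 8.33 at 72 h. The 12 h arrays were above all others. IFI44L rose by 0.84 ± 0.09 at 12 h (SE, limma adjusted p = 9.29e-06), and its changes of 0.33 and 0.27 at 24 and 72 h did not pass. A second probe set also rose by 0.84 at 12 h and the remaining one gave 0.61 (limma adjusted p = 0.00107), which did not pass. At 24 h these other probe sets of IFI44L gave 0.06 and -0.23 and did not pass. Its neighbour IFI44 changed by 0.26, 0.03 and -0.19, XAF1, an antagonist of a caspase inhibitor, by 0.11, 0.16 and 0.22, and CXCL10, a chemokine for T cells, by 0.07, 0.15 and 0.36, and none of these passed the test.

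**Figure D3:**
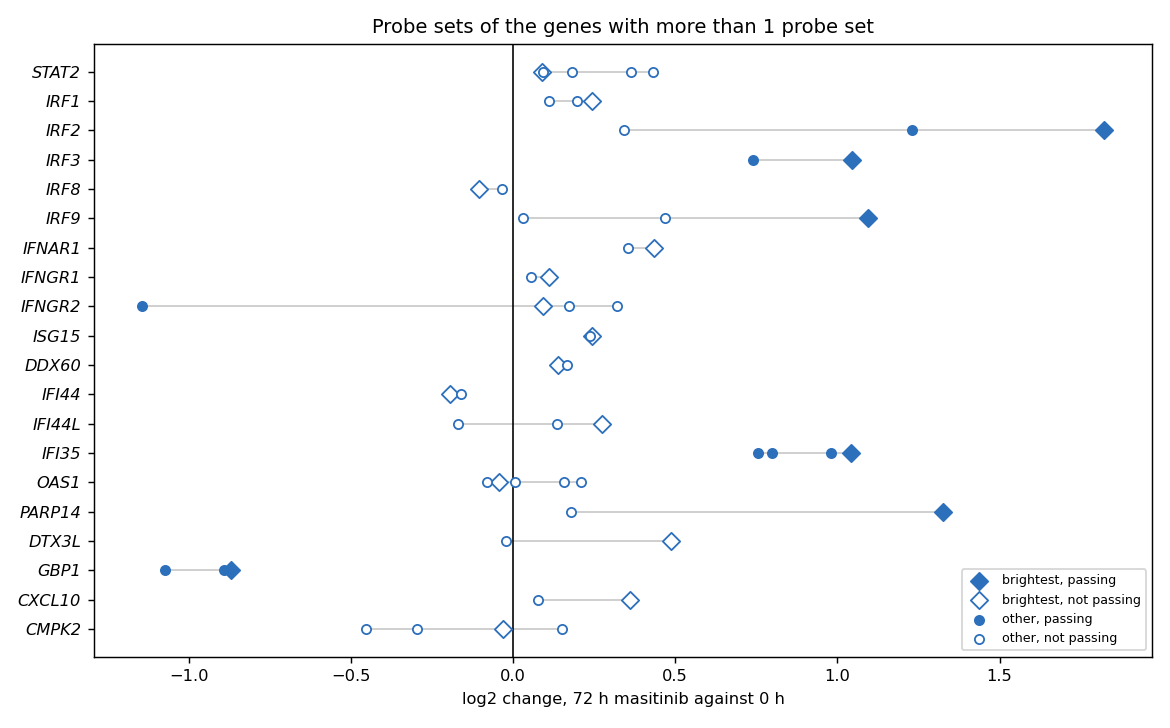
Log2 change at 72 h of masitinib against 0 h (x axis) for every probe set of the 20 interferon response genes with more than 1 probe set (rows). Diamonds are the brightest probe set of a gene, circles the others, and filled symbols passed the test; the probe sets of IRF3, IFI35 and GBP1 all passed in 1 direction, IRF2, IRF9 and PARP14 each had at least 1 that did not pass, and IFNGR2 had 1 that fell by 1.14 beside 3 near 0.

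Direct comparisons of the treated times asked when these changes took place. Between 24 h and 12 h, 0 of the 37 genes were higher and 1 lower (2.7%), where 1.41% of all genes were higher and 3.10% lower. Between 72 h and 24 h, 2 were higher (5.41%) and 0 lower, where 1.96% and 1.81% of all genes were. Between 72 h and 12 h, 3 were higher and 3 lower (8.11% each), where 4.80% and 5.51% of all genes were. The 24 h against 12 h and 72 h against 24 h comparisons share the 24 h arrays, and the 0 h arrays are shared by all comparisons with control cells.

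OAS2 rose by 1.33 ± 0.12 (SE, limma adjusted p = 7.78e-06) at 72 h against 24 h and by 1.46 (9.15e-07) against 12 h. PARP14 rose by 0.71 ± 0.10 (0.000234) at 72 h against 24 h and by 0.85 (2.06e-05) against 12 h. The first of these PARP14 calls was lost without the second or the third 24 h array or the first or the third 72 h array (0.65, 0.67, 0.73 and 0.63 with limma adjusted p = 0.00165, 0.00179, 0.00108 and 0.00106), so that OAS2 was then the only member higher. These were the late rises of the set.

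IRF2 rose further, by 0.59 ± 0.07 (SE, limma adjusted p = 1.63e-05) at 72 h against 12 h. This sat at the fold threshold, and without the first or second 12 h array or the first or second 72 h array it was 0.58, 0.55, 0.57 and 0.58 and no longer passed. IRF3 and IRF9 did not pass in any comparison between treated times, with changes from -0.30 to 0.14.

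GBP1 fell by 1.02 ± 0.09 (SE, limma adjusted p = 2.91e-06) and USP18 by 0.65 ± 0.09 (8.5e-05) at 72 h against 12 h, and IFIH1 fell with them as given above. USP18 also fell by 0.59 (limma adjusted p = 0.000435) at 24 h against 12 h, but leaving out any 1 of the 6 arrays of these times gave adjusted p-values from 0.00121 to 0.00298, so that no gene was then called lower. GBP1 changed by -0.54 (limma adjusted p = 0.00116) at 72 h against 24 h, and by -0.66 (1e-04), past the threshold, without the third 72 h array. ISG15 and IFI44L, highest at 12 h, changed by -0.56 (limma adjusted p = 3.06e-05) and -0.57 (0.000251) at 72 h against 12 h, both under 1.5-fold. Both passed without the second 12 h array (-0.60 and -0.62) or the third 72 h array (-0.60 each), so that 5 genes were then lower, and IFI44L also without the first 72 h array (-0.60). The IFI44L probe set with the largest change fell by 0.78 (limma adjusted p = 0.000148) at 72 h against 12 h. At 24 h against 12 h the largest fall among its probe sets was 0.84 (0.000186), which also passed. IFNGR1, lowest at 12 h, changed by 0.58 (limma adjusted p = 5.9e-05) at 72 h against 12 h and passed without the second or the third 12 h array (0.60 and 0.64) or the first or the third 72 h array (0.59 and 0.61).

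Several of these genes are neighbours in the dog genome, by their order in the assembly UU_Cfam_GSD_1.0. OAS1, OAS3 and OAS2 lie in a row, and at 72 h their changes were -0.04, -0.13 and 1.32. PARP9 and DTX3L are adjacent and PARP14 lies 1 gene beyond DTX3L, and all 3 rose at 24 h, by 0.60, 0.75 and 0.62, while at 72 h they stood at 0.70, 0.49 and 1.33. In the pair HERC5 and HERC6 the 24 h changes were 0.87 and 0.16, and in the pair IFI44L and IFI44 the 12 h changes were 0.84 and 0.26. Adjacent genes thus ranged from similar values, as in PARP9 and DTX3L, to values far apart, as in OAS3 and OAS2. The differences between neighbours were not tested.

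**Figure D4:**
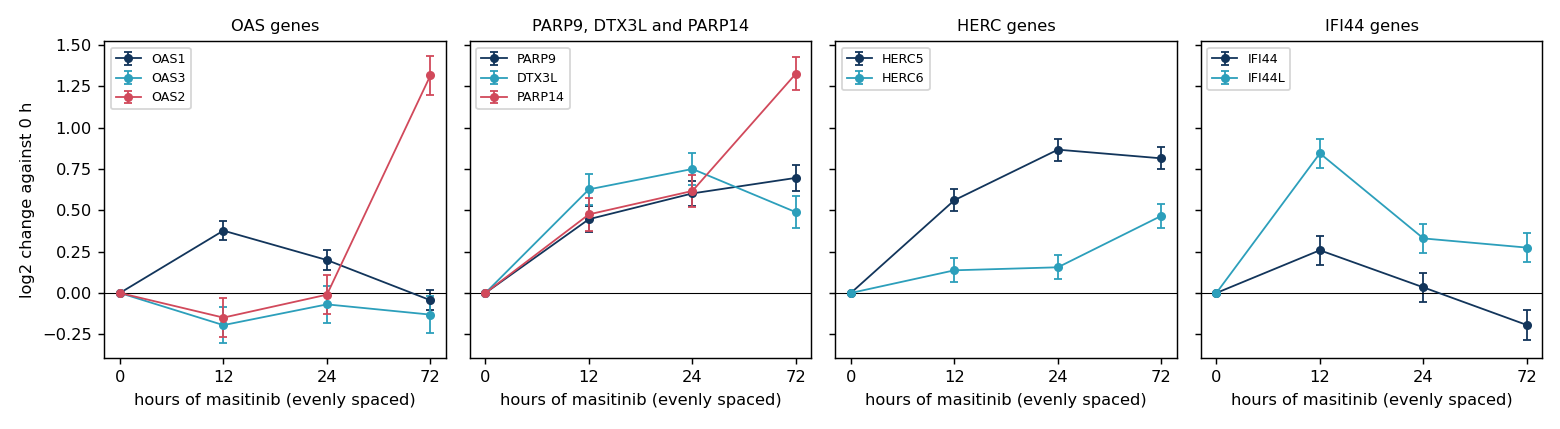
Log2 change against 0 h (y axis, ± SE from the limma fit) at 0, 12, 24 and 72 h of masitinib (x axis, evenly spaced) for neighbouring genes: OAS1, OAS3 and OAS2, PARP9, DTX3L and PARP14, HERC5 and HERC6, and IFI44 and IFI44L. OAS2 stood at 1.32 at 72 h, where OAS1 and OAS3 were at -0.04 and -0.13, and PARP9, DTX3L and PARP14 lie close together up to 24 h.

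The remaining parts of the pathway were read from 4 further lists. Of 12 interferon genes, 4 were measured (IFNB1, IFNK, IFNG and IFNL1), none passed the test at any time, and their mean level per array was 4.043 to 4.155 at 72 h, against 4.115 to 4.233 at 0 h. All 4 were dim, with mean levels of 3.29, 3.68, 4.39 and 5.18, below every array's median. The lack of calls therefore cannot show that these transcripts were unchanged. Of 12 genes close to the receptor, 11 were measured and 1, 2 and 2 rose at 12, 24 and 72 h (9.09%, 18.2% and 18.2%), with none lower, where 4.26%, 8.01% and 8.73% of all genes were higher. PTPN6, the phosphatase SHP-1 that restrains JAK and KIT signalling, rose by 1.13, 1.44 and 1.05 (SE 0.05, limma adjusted p = 1.67e-08, 5.12e-10 and 6.42e-09). JAK1, the kinase shared by the interferon receptors, changed by 0.43 at 12 h, under 1.5-fold, and rose by 0.65 (6.4e-07) and 0.87 (3.64e-08) at 24 and 72 h.

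Among 20 sensing genes, 11 were measured. At 12 h 0 rose and 1 fell (9.09%), where 4.26% of all genes were higher and 6.30% lower. At 24 h 0 rose and 3 fell (27.3%), where 8.01% of all genes were higher and 10.0% lower. At 72 h 1 rose (9.09%) and 3 fell (27.3%), where 8.73% of all genes were higher and 11.0% lower. TLR3, the endosomal sensor of double-stranded RNA, changed by -0.44 at 12 h and fell by 1.12 and 1.17 at 24 and 72 h (SE 0.09, limma adjusted p = 3.22e-07 and 2.03e-07). STING1, the adaptor of the DNA sensor cGAS, rose by 1.07 ± 0.08 at 72 h (SE, limma adjusted p = 1.71e-07), after 0.27 and 0.44. IRF2BP2, a co-repressor that binds IRF2, fell by 0.82, 0.78 and 0.67. TRAF3, an adaptor between sensors and IRF3, changed by -0.54 at 12 h and fell by 0.73 and 0.59, and the last call was lost without the third control (-0.54) or the third 72 h array (-0.52), both under 1.5-fold. TLR3 and IFIH1 had their lowest mean at 72 h, and STING1 its highest. DDX60 and DHX58, the latter a sensing gene chosen after its values were seen, also had their highest mean at 72 h (4.13 and 5.82). Neither of these passed the test against 0 h.

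Of 50 other interferon-induced genes, 32 were measured, of which 4, 8 and 8 rose (12.5%, 25% and 25%) and 2, 3 and 3 fell (6.25%, 9.38% and 9.38%) at 12, 24 and 72 h, with median changes of 0.13, 0.12 and 0.14. Over all genes 4.26%, 8.01% and 8.73% were higher and 6.30%, 10.0% and 11.0% lower at these times, so the shares that fell were close to those of all genes. LGALS9, the lectin galectin-9, changed by 0.54 at 12 h and rose by 1.15 and 1.80 at 24 and 72 h (SE 0.09, limma adjusted p = 2.96e-07 and 3.85e-09). PARP11, which like PARP14 attaches single ADP-ribose units, rose by 0.65, 1.12 and 1.38, and SAMD9L, an antiviral growth inhibitor, by 0.86, 1.10 and 1.23. RNF213, a large ubiquitin ligase, rose by 1.13 and 1.11 at 24 and 72 h and SHISA5 by 0.73 and 0.94, after changes of 0.31 and 0.44 at 12 h. TDRD7, a scaffold of RNA granules, rose by 0.81, 0.90 and 0.89. The 3 that fell, chosen after their values were seen, were PNPT1, which degrades RNA in mitochondria (by 1.14, 1.20 and 0.88), SAMHD1, which breaks down deoxynucleotides (by 0.72, 0.70 and 0.79), and PLSCR1, an antiviral scramblase (-0.27 at 12 h, then by 0.74 and 0.87). SAMHD1 lost its 12 h call without any 1 of the 3 controls or the first or second 12 h array (-0.63 to -0.77, adjusted p up to 0.00304), and its 24 h call without the first or second control or the second or the third 24 h array (-0.61 to -0.71, adjusted p up to 0.00243). SAMHD1 was also dim, with a mean level of 4.34, below every array's median.

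All these changes are relative to quantile normalization, which sets every array to the same distribution. The poly-A control transcripts that the Affymetrix protocol adds to each RNA were higher by 0.29, 0.60 and 0.47 at 12, 24 and 72 h than at 0 h. Scaling to them put the median of all probe sets at -0.28, -0.57 and -0.44 and that of the 37 genes at -0.16, -0.45 and -0.33, with the sign changed in 12, 17 and 16 of the 37. On this scale IRF2 (0.94, 1.08 and 1.35) and IRF9 (0.78, 0.61 and 0.62) still rose at every time, IRF3 at 12 and 24 h, and OAS2 (0.84) and PARP14 (0.85) at 72 h. USP18, GBP1 and EIF2AK2 had larger falls, of 1.61, 1.34 and 1.14 at 72 h. At 12 h IFNGR1 (-0.76), USP18 and EIF2AK2 newly passed as lower. At 24 h IFNGR1 (-0.75), MX1 (-0.77), IRF8, ISG20, IFIH1, DDX60, OAS2 (-0.61), OAS3, TRIM25, CMPK2, EIF2AK2 and GBP1 newly passed as lower. At 72 h IFIH1, IFI44, OAS3 and TRIM25 did. ISG15, IFI44L, IFI35, HERC5, PARP9 and DTX3L no longer passed as higher at any time, and the rise of IRF3 at 72 h, 0.57 (limma adjusted p = 0.000359), was just under 1.5-fold. In the further lists JAK1, UBA7, SHISA5 and TDRD7 also no longer passed at any time. PARP11 and SAMD9L no longer passed at 12 h (0.36 and 0.57) or 24 h (0.52 and 0.49), LGALS9 and RNF213 at 24 h (0.54 and 0.53), and PTPN6 at 72 h (0.58).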

How the data were processed

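The 12 arrays were labelled by time (0, 12, 24 and 72 h) and by masitinib or control, with 3 per time point. The authors scanned the arrays and used the gcRMA workflow of the Partek software (background correction, quantile normalization, median polish); Partek and RMA are also named in the submitters' processing notes. The resulting deposited table is on the log2 scale and holds expression for each probe set on each array. No columns of other samples were present, and the precision is limited by the number of arrays (median residual SD 0.1124); no pair of arrays held identical values.

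Values were analysed in R 4.3.3 with limma 3.58.1 (lmFit and eBayes, 1 coefficient per time point, all 12 arrays), and figures were drawn with Python 3.11.15 and matplotlib 3.10.9. Of 43035 probe sets, 111 Affymetrix controls were set aside with Benjamini-Hochberg adjustment over the other 42924. Genes were called at an adjusted p below 0.001 together with a change above 1.5-fold, the thresholds of the study's methods. The study used an analysis of variance with q-values in Partek. An approximation of it was run in R as an alternative. This took contrasts of an ordinary linear model, with scaled Benjamini-Hochberg values as q-values. Probe sets with 1 gene symbol (29254) gave 15115 genes through the platform annotation, 439 probe sets had several symbols and 13231 none. The 37 genes had 74 probe sets, and 10 of the 37 were among the dimmest 40% of probe sets. Updating symbols through Entrez identifiers found none of the 8 missing genes. Assembly UU_Cfam_GSD_1.0 was used for names and gene order only.

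The genes, the lists and the rules were chosen with earlier results of these data known. Members called in any comparison are given array by array, as are IFNAR1 and IFIT2, and the others by mean, change or range. Of each further list, at most 6 called genes with the largest change at 72 h are named. Named outside that rule are UBA7, DHX58, PNPT1, SAMHD1 and PLSCR1. So are UBE2L6 and the measured interferon genes, none of which was called. The comparison of 72 h with 12 h was added after values were seen. Alternatives were other thresholds, only the arrays compared, and the approximation of the study's analysis of variance with q-values. Others were the dimmest 40% left out, updated symbols, cyclic loess, poly-A scaling (36 control probe sets) and another rule for the probe set. A block for the replicate number and omission of each array in turn were also tried. The steps were tested on simulated data. Promoter motifs are not analysed here.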

Additional observations from a re-analysis of the deposited data

Results flagged for a closer look

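These 9 results were picked out because the change from 1 treated time to a later one, tested directly with limma, passed the threshold. OAS2 rose by 1.326 (log2) at 72 h against 24 h and by 1.464 at 72 h against 12 h. PARP14 rose by 0.7092 and 0.8508 in the same 2 comparisons, and IRF2 rose by 0.5851 at 72 h against 12 h. USP18 changed by -0.5919 at 24 h against 12 h and by -0.6531 at 72 h against 12 h. IFIH1 changed by -0.681 and GBP1 by -1.017 at 72 h against 12 h. No group had enough arrays for a check of single outlying arrays.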

How the results depend on the processing

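Across the settings tried, 36 calls of a gene in a comparison were followed. Under settings other than leaving out an array they gave 396 values, of which 354 kept their direction and stayed past the threshold, 41 kept their direction and no longer passed, and 1 changed direction: PARP9 at 24 h gave -0.001086 with poly-A scaling. Of these settings, the looser p threshold and no fold threshold used the main fit, so they could not lose a call. Choosing the probe set with the largest change also favoured passing. Of 432 values with an array left out, 411 stayed past the threshold and 21 kept their direction and no longer passed. With no fold threshold the counts of members were 2 lower at 12 h, 1 higher at 24 h against 12 h and 6 lower at 72 h against 12 h. With a 2-fold threshold they were 3 higher at 12 h, 3 higher at 24 h, 1 lower at 72 h, 0 lower at 24 h against 12 h, 1 higher at 72 h against 24 h, and 1 higher and 1 lower at 72 h against 12 h. Fitting only the times compared left 1 higher at 72 h against 24 h. The approximation of the study's analysis of variance with q-values left 0 lower at 24 h against 12 h and 1 higher at 72 h against 24 h. It also took the 12 h call of DTX3L (q = 0.00113). Cyclic loess took the 24 h call of PARP14 (0.5656, under 1.5-fold). Poly-A scaling gave 3 higher and 3 lower at 12 h, 3 higher and 13 lower at 24 h, 4 higher and 7 lower at 72 h, 5 lower at 24 h against 12 h and 7 lower at 72 h against 12 h. It also lowered the median of all probe sets in each of these comparisons. Shares of all genes were counted under the main settings only, so the counts of members in this section cannot be set against the whole array. The probe set with the largest change gave 2 lower at 24 h against 12 h, 1 lower at 72 h against 24 h and 5 lower at 72 h against 12 h. The cause of these shifts was not tested. With each array left out, members higher numbered 6 to 8 at 12 h, 6 to 9 at 24 h, 8 to 11 at 72 h, 0 to 0 at 24 h against 12 h, 1 to 2 at 72 h against 24 h and 2 to 4 at 72 h against 12 h, and members lower numbered 0 to 0, 1 to 1, 3 to 4, 0 to 1, 0 to 1 and 3 to 5 in the same order. Fitting only the times compared also took the 24 h call of PARP14 (limma adjusted p = 0.00114), the 72 h call of EIF2AK2 (0.00106) and the call of IFIH1 at 72 h against 12 h (0.00105). With the replicate block the members lower at 24 h against 12 h numbered 0, as USP18 had an adjusted p of 0.00153, and no other call was lost. Arrays of the same number did not deviate together more often than others (5 of 18 pairs had a correlation over 0.1, and 12 of 36 pairs of different number). The numbers were therefore not taken to pair the cultures. Correlations ran from -0.329 to 0.411 for the same number and from -0.455 to 0.461 for different numbers. Some arrays of different times thus shared deviations, the third 72 h array among them, and the main model has no term for this. Signal limits the dim members: 10 of the 37 were among the dimmest 40% of probe sets.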
